A study of Mus musculus with 16 samples.

Results

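Ttr and 8 further genes that mark the epithelium of the choroid plexus (Kl, Folr1, Clic6, Kcne2, Sostdc1, Aqp1, Calml4 and Tmem72) were followed by name through 16 RNA sequencing libraries of mouse hypothalamus. They are 9 of the 47069 genes in the deposited count table. They were read together so that a difference in Ttr could be set beside other markers of the tissue that makes most of it. The mice were C57BL/6N, an inbred laboratory strain, fed diets with 1%, 2.5%, 5% or 20% of their energy as protein, each at 60% and at 20% of energy as fat. Each of the 8 diets had 2 libraries, which gives 4 libraries per protein level and 8 per fat level. All groups share the strain, and the labels name no transgene, drug, age or sex. The labels describe tissue cut out of the whole brain and do not tie the paired libraries to different mice. Every p-value below thus rests on the spread among these libraries alone, and that spread may be technical.

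The choroid plexus is a fringe of epithelium inside the brain's ventricles that secretes cerebrospinal fluid. It hangs from the roof of the third ventricle, which runs down the midline through the thalamus and hypothalamus, so a dissected piece can include some of it. Ttr encodes transthyretin, the carrier of thyroid hormone and, with retinol-binding protein, of retinol; in the brain it is made mainly by this epithelium and secreted into the fluid. Sostdc1 encodes a secreted antagonist of BMP and Wnt signals, and Kl encodes klotho, the co-receptor for FGF23. Folr1 encodes the folate receptor alpha, which carries folate across the epithelium. Aqp1 encodes the water channel aquaporin 1, Kcne2 an accessory subunit of potassium channels and Clic6 a member of the chloride intracellular channel family. Calml4 encodes a calmodulin-like protein and Tmem72 a transmembrane protein. In a bulk sample, fewer cells of a type and less RNA per cell cannot be told apart.

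Library totals ran from 17731242 to 18511818 counts. Marker lists for the tissue gave 2 libraries that stood apart. The libraries 20% fat/1% protein replicate 2 and 20% fat/2.5% protein replicate 2 averaged log2 0.88 and 1.58 above the mean of all libraries over 12 markers of cortical and hippocampal neurons, against -0.42 to 0.01 in the other 14 libraries. In the same 2 libraries 12 markers of hypothalamic nuclei averaged -0.31 and -0.23, and 60% fat/1% protein replicate 2 had -0.24. Slc17a7, a glutamate transporter of cortical neurons, had 5074 and 10337 counts in these 2, called the cortex-marker libraries below. Results that rest on them are given with and without them. Mitochondrial genes took 1.54% and 1.61% of counts in the 60% fat/1% protein libraries and 1.78% in 20% fat/1% protein replicate 1, against 2.19% to 3.20% in the other 13, and the part of this share in the results was not tested.

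Of the 8 other markers, Aqp1 and Kcne2 had the highest Pearson's r with Ttr over all 16 libraries, and their promoters are shown for that reason. Without the cortex-marker libraries Clic6 (r 0.36) came before Kcne2 (0.35). Windows from RefSeq (GRCm38.p6) were used for 5 of the 9 genes, namely Kl, Aqp1, Tmem72, Calml4 and, with 2 starts, Kcne2. No window of Ttr, Folr1, Clic6 or Sostdc1 was used, so the motif search below does not cover these genes. Each window runs 5′ to 3′ from 250 bases before the start to 50 bases after it. Capitals mark the bases after the start in Kcne2 at chr16:92292139-92292438 and in Aqp1 at chr6:55336049-55336348, both on the plus strand.
Kcne2: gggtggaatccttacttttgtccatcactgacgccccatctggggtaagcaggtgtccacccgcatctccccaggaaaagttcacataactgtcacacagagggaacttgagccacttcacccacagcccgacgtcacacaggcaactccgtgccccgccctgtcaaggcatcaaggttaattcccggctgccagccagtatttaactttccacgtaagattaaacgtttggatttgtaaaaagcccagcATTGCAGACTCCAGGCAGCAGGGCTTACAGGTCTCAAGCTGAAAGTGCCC
Aqp1: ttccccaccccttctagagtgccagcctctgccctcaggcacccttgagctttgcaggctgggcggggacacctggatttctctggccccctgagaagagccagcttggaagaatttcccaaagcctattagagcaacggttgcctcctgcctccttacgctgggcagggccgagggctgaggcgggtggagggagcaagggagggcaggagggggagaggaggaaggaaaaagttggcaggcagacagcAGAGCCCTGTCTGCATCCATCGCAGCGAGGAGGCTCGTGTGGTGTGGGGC
The letters TAATCC, the core of the motif of OTX2, a homeobox factor of choroid plexus epithelium, were searched on both strands, as were GTAAACA, the core of the forkhead motif. Neither was found in the 6 windows, and 7.06% and 3.65% of 32851 promoter windows of the same length hold them.

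On the mouse build GRCm38 (GENCODE M21), Ttr (ENSMUSG00000061808) lies on chromosome 18 from 20665280 to 20674321 on the plus strand. Kcne2 (ENSMUSG00000039672) and Clic6 (ENSMUSG00000022949) both lie on chromosome 16, at 92292389 to 92298129 and 92485736 to 92541243. Aqp1 (ENSMUSG00000004655) and Tmem72 (ENSMUSG00000048108) lie on chromosome 6, at 55336432 to 55348555 and 116679063 to 116716913. Kl (ENSMUSG00000058488) lies on chromosome 5 from 150952607 to 150993817 and Folr1 (ENSMUSG00000001827) on chromosome 7 from 101858331 to 101870788. Calml4 (ENSMUSG00000032246) lies on chromosome 9 from 62858080 to 62875921 and Sostdc1 (ENSMUSG00000036169) on chromosome 12 from 36314139 to 36318452. Of the 9 spans, 6 overlap no other annotated gene. The span of Folr1 overlaps the coding gene Anapc15 on the opposite strand and that of Calml4 the pseudogene Gm10653 on the opposite strand. The span of Clic6 overlaps the transcript 2410124H12Rik on the same strand. Whether reads were counted by strand is not stated, so the counts of Folr1 and Calml4 are uncertain to that extent. Those of Clic6 are uncertain whether or not strand was used.

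Ttr was higher at 1% than at 20% protein and was the most variable of the 9 genes. At 60% fat with 1% protein it had 90.0 and 30.2 CPM (counts relative to the library total, scaled by TMM factors), and at 20% fat with 1% protein 12.6 and 210.5 CPM. The diets with 2.5% protein gave 10.8 and 16.8 CPM at 60% fat, and 9.15 and 176 CPM at 20% fat. Those with 5% protein gave 3.39 and 6.42 CPM at 60% fat, and 29.5 and 13.2 CPM at 20% fat. At 20% protein Ttr had 15.1 and 4.84 CPM with 60% fat, and 7.03 and 5.39 CPM with 20% fat. The highest library was 62.1 times the lowest, and the 3 highest were the cortex-marker libraries and 60% fat/1% protein replicate 1. The lowest library at 1% protein, with 12.6 CPM, lay below the highest at 20% protein, with 15.1 CPM, so the groups overlapped.

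**Figure D1:**
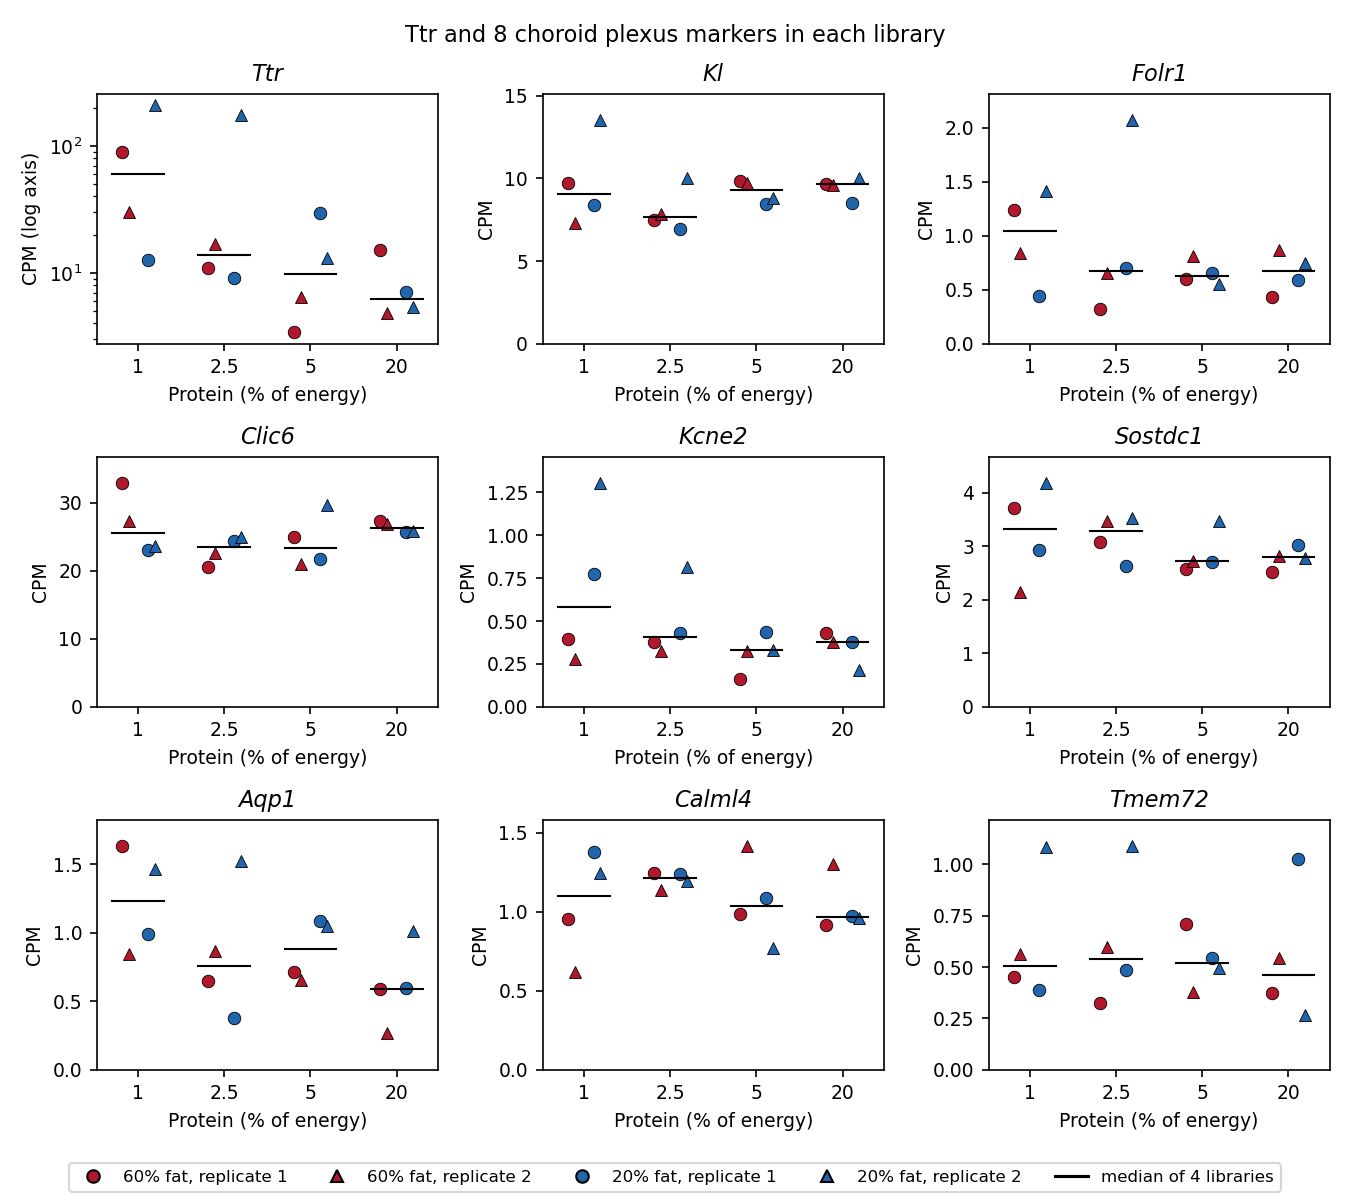
Level of each gene in CPM by protein in the diet (% of energy), with the 60% fat libraries in red left of the 20% fat libraries in blue, circles for replicate 1, triangles for replicate 2 and a line at the median of 4 libraries; the Ttr axis is logarithmic. The Ttr medians are 60.1, 13.8, 9.81 and 6.21 CPM at 1%, 2.5%, 5% and 20% protein, and the points of every gene overlap between 1% and 20% protein.

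By protein level, Ttr averaged 85.8 ± 89.5 CPM at 1%, 53.3 ± 82.1 at 2.5%, 13.1 ± 11.7 at 5% and 8.08 ± 4.74 at 20% (SD, n = 4 each). At 1% and 2.5% protein the SDs exceeded the means. In the fit over all 16 libraries Ttr rose at 1% against 20% protein by 3.26 ± 0.93 on the log2 scale (SE), which is 9.56-fold (edgeR's quasi-likelihood test, Benjamini-Hochberg adjusted p = 0.0297). No neighbouring pair of protein levels passed: the log2 change was 1.00 ± 0.80 for 1% against 2.5% (adjusted p = 0.47), 1.89 ± 0.88 for 2.5% against 5% (unadjusted p = 0.0456, adjusted p = 1.00) and 0.37 ± 1.00 for 5% against 20% (adjusted p = 1.00). A straight line in protein percent gave 2.93 ± 0.96 from 20% to 1% (adjusted p = 0.234), and a line in log2 protein gave 3.55 (adjusted p = 0.0212).

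The call for Ttr depended on single libraries. It no longer passed without 60% fat/1% protein replicate 1 (adjusted p = 0.1), replicate 2 of the same diet (0.0505), 60% fat/20% protein replicate 2 (0.0695), or replicate 1 (0.0773) or replicate 2 (0.11) of 20% fat with 20% protein. Across all 16 removals the log2 change lay between 2.77 and 4.22. An exact permutation test, two-sided, of the mean log2 CPM at 1% protein (5.70, SD 1.77) against 20% protein (2.88, SD 0.73) gave p = 0.0571 over 70 arrangements, which allow a smallest p of 0.0286 (n = 4 each). Without the 2 cortex-marker libraries the means were 44.3 ± 40.6 CPM at 1% (n = 3) and 8.08 ± 4.74 CPM at 20% protein (n = 4), and the log2 change was 2.39 ± 0.62 (edgeR, adjusted p = 0.00672). That fit called 34.8% of 16932 genes, against 14.3% of 16646 with all libraries, so its adjusted p is not on a like footing.

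The other 8 markers did not pass at 1% against 20% protein. Ttr was thus the 1 of 9 called, where 14.3% of 16646 genes tested were called in either direction, 8.26% higher and 6.01% lower. All 9 fitted changes were positive with a median of 0.22, beside 50.7% positive and a median of 0.0035 over all genes. Without the cortex-marker libraries the members' median was 0.07, beside -0.0028 over all genes, and Kl, Calml4 and Tmem72 were negative. None of the 9 had its 1% libraries fully apart from its 20% protein libraries, against 13.8% of all genes tested. All 9 passed the filter on low counts. Kcne2 reached the cutoff of 0.544 CPM in 3 libraries, both of 20% fat with 1% protein and 1 of 20% fat with 2.5% protein. Tmem72 reached it in 6, so both genes were measured near that limit. Kcne2 was thus kept through libraries where it is high, and its place among the 9 changes with protein is a description.

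**Figure D2:**
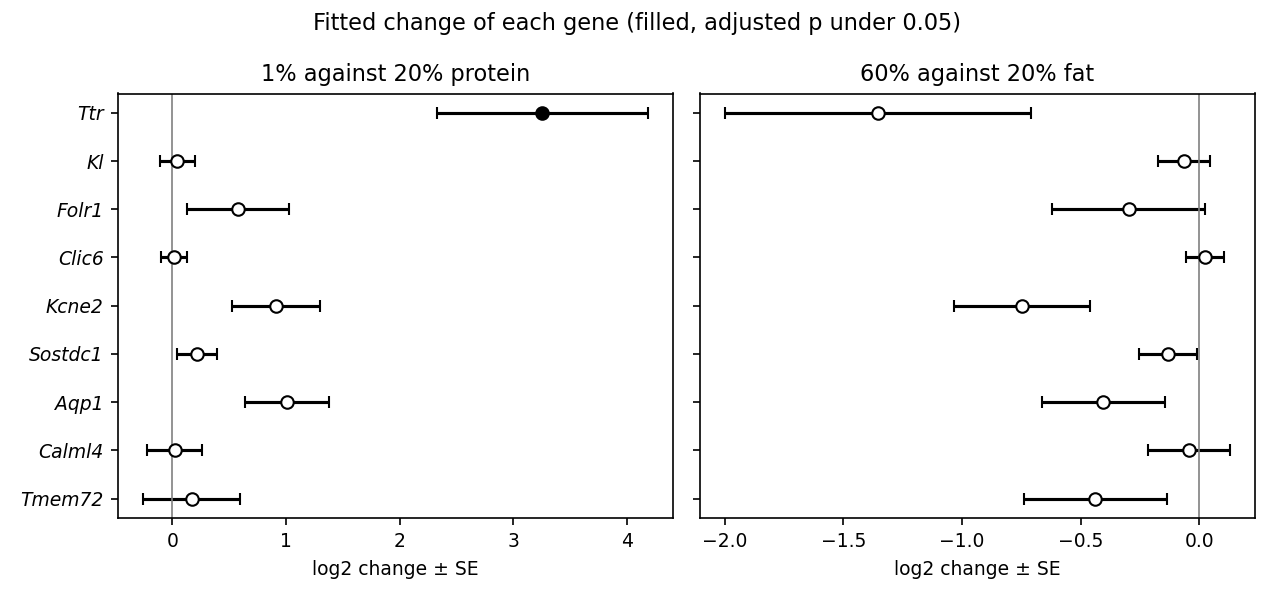
Fitted log2 change of each gene with its standard error for 1% against 20% protein (left) and 60% against 20% fat (right) over 16 libraries; a filled point has an adjusted p under 0.05. Ttr, at 3.26 for protein, is the filled point, and for fat 8 of 9 changes lie below 0 with none filled.

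Among the secreted proteins and co-receptors, Sostdc1 averaged 3.24 ± 0.90 CPM at 1%, against 2.79 ± 0.21 CPM at 20% protein (SD, n = 4 each), a log2 change of 0.22 ± 0.18 (adjusted p = 0.415). Sostdc1 gave 0.07 ± 0.18 without the cortex-marker libraries, 0.07 without 20% fat/1% protein replicate 2 alone, 0.10 without 60% fat/1% protein replicate 1 and 0.35 without 60% fat/1% protein replicate 2. Kl averaged 9.74 ± 2.70 CPM at 1% and 9.45 ± 0.67 CPM at 20% protein, a log2 change of 0.04 ± 0.15 (adjusted p = 0.881). Kl had 13.5 CPM in 20% fat/1% protein replicate 2 and 6.94 to 10.03 CPM in the other 15 libraries.

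Among the transport genes, Aqp1, Kcne2 and Folr1 varied more between libraries than Clic6 did. Aqp1 had 29, 15, 18 and 27 counts at 1% protein (60% fat, then 20% fat), against 11, 5, 11 and 19 counts at 20% protein. The 2 groups overlapped, and the log2 change was 1.01 ± 0.37 (adjusted p = 0.0749). Aqp1 passed without 20% fat/2.5% protein replicate 1 (adjusted p = 0.0452) and by edgeR's likelihood ratio test (0.0417). Kcne2 had 7, 5, 14 and 24 counts at 1%, against 8, 7, 7 and 4 counts at 20% protein, a log2 change of 0.91 ± 0.39. Since Kcne2 reached the filter's cutoff at 1% and 2.5% protein alone, this change is given as a description. Its high values at 1% protein both came from 20% fat, and the change was 0.504 ± 0.392 without the cortex-marker libraries. Folr1 had 22, 15, 8 and 26 counts at 1% and 8, 16, 11 and 14 counts at 20% protein, a log2 change of 0.58 ± 0.45 (adjusted p = 0.395) that was 0.30 ± 0.35 without the cortex-marker libraries. Its highest library was the cortex-marker library at 2.5% protein, with 38 counts (exact Poisson interval, counting error only, 26.9 to 52.2). Clic6 was the steadiest of the 9, with 380 to 584 counts over all libraries and a log2 change of 0.01 ± 0.12 (adjusted p = 0.952).

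The last pair of markers changed by less than their standard errors. Calml4 had 11 to 26 counts over all libraries and a log2 change of 0.02 ± 0.25 (adjusted p = 0.968), and Tmem72 had 5 to 20 counts and 0.17 ± 0.42 (adjusted p = 0.814). Both Tmem72 counts of 20 were in the cortex-marker libraries. Without those 2 libraries the changes turned negative for Calml4 (-0.08), Kl (-0.18) and Tmem72 (-0.23).

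At 2.5% and at 5% against 20% protein no member was called by edgeR's quasi-likelihood test, against 0.00601% and 0.03% of genes, and none at 1% against 2.5% (2.32% of genes), 1% against 5% (4.87%) or 2.5% against 5% (0%). At an unadjusted p under 0.05, 1 member passed at 2.5% (801 of 16646 genes did) and 0 at 5% (501 of 16646). For these 2 comparisons with 20% protein, DESeq2 and edgeR's likelihood ratio test called 0. At 1% against 2.5%, 1% against 5% and 2.5% against 5%, 0, 2 and 1 of 9 members had an unadjusted p under 0.05, as did 3681, 3703 and 717 of the 16646 genes. Kcne2 was 1 of the 2 at 1% against 5%. Since it was kept through libraries at 1% and 2.5% protein, its place there is a description.

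Fat made no difference that passed. Ttr averaged 22.2 ± 28.7 CPM at 60% and 58.0 ± 84.4 CPM at 20% fat (SD, n = 8 each), with the same median of 12.9 CPM in both. The fitted log2 change for 60% against 20% fat was -1.35 ± 0.64 (adjusted p = 0.628), and it turned to 0.19 without the cortex-marker libraries, both of which were 20% fat. Kcne2 averaged 0.335 ± 0.083 CPM at 60% and 0.585 ± 0.358 CPM at 20% fat, a log2 change of -0.75 ± 0.28 that was -0.40 ± 0.29 without the cortex-marker libraries. Since Kcne2 reached the filter's cutoff in 20% fat libraries alone, its values between fat levels are given as a description. No member was called, against 0.00601% of genes, and DESeq2 and edgeR's likelihood ratio test also called 0. At an unadjusted p under 0.05, where 1297 of 16646 genes were, the 1 member was Kcne2. It was kept through 20% fat libraries, so that p-value is no test of fat.

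The change of Ttr between protein levels was then compared across fat. At 60% fat it was 2.59 ± 1.21 (adjusted p = 0.176) and at 20% fat 4.17 ± 1.28 (adjusted p = 0.133), with a difference of -1.57 ± 1.74 (adjusted p = 0.799) that turned to 1.56 without the cortex-marker libraries. Within a fat level 0 of 9 members were called by edgeR's quasi-likelihood test, against 4.25% of genes at 60% and 1.78% at 20% fat. In each, 2 of 9 members had an unadjusted p under 0.05, where 4692 and 2568 of 16646 genes did. At 20% fat Kcne2 was 1 of the 2, and since it was kept through libraries of that fat level, its place there is a description. Kcne2 gave -0.26 at 60% and 1.79 ± 0.45 at 20% fat, a difference of -2.05 ± 0.71, again as a description. Aqp1 gave 1.503 ± 0.58 at 60% (adjusted p = 0.114) and 0.61 at 20% fat. None of the 9 differences was called, where 0% of genes were called. Along the linear slope 0 of 9 were called, against 0.018% of genes, with 2 at an unadjusted p under 0.05 (2435 of 16646 genes) and 0 by DESeq2 and the likelihood ratio test.

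**Figure D3:**
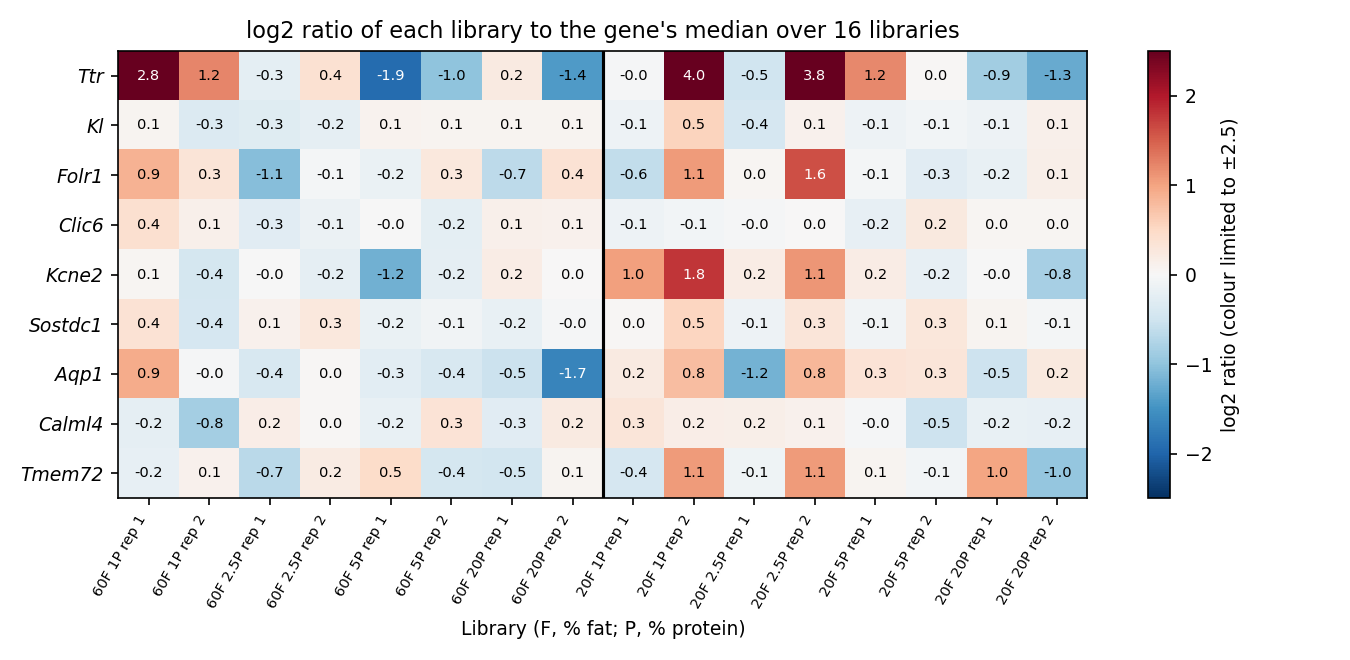
Log2 ratio of each library's CPM to that gene's median over 16 libraries, with genes in rows, the 60% fat libraries left and the 20% fat libraries right of the black line, protein from 1% to 20% within each, and red above and blue below the median. The libraries with most Ttr, with 90.0, 210.5 and 176 CPM, hold many of the red values of Folr1, Kcne2, Aqp1 and Tmem72, while the rows of Clic6 and Calml4 stay pale there.

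The libraries with most Ttr were also high for several of the other markers. The library 20% fat/1% protein replicate 2 was among the 3 highest libraries for 6 of the 8, 20% fat/2.5% protein replicate 2 for 6 and 60% fat/1% protein replicate 1 for 4. Against the median of the other 13 libraries, the first of these had 19.4 times as much Ttr, 3.44 times Kcne2, 2.18 times Tmem72 and 2.17 times Folr1. The second had 16.3 times Ttr, 3.17 times Folr1 and 2.19 times Tmem72. The third had 8.32 times Ttr, 2.30 times Aqp1 and 1.90 times Folr1, but 1.04 times Kcne2 and 0.905 times Tmem72. In the same order, Clic6 was 0.951, 1.00 and 1.32 times that median, and Calml4 1.15, 1.10 and 0.881 times.

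Ttr moved by more than its companions did. The other 8 summed to 629 to 906 counts per library. Per summed count of these 8, Ttr gave 4.39, 3.90 and 1.77 in its 3 highest libraries, against 0.0837 to 0.804 in the other 13. At 1% protein that ratio was 1.77 and 0.757 with 60% fat and 0.329 and 4.39 with 20% fat, and at 20% protein it was 0.356, 0.113, 0.172 and 0.129. The groups overlapped, since 0.329 at 1% protein lay below 0.356 at 20% protein. Clic6 and Kl supply most of the summed counts (7376 and 2677 over all libraries), so this ratio is mainly to that pair. The library with least Ttr (62 counts), 60% fat/5% protein replicate 1, still had 456 counts of Clic6 and 180 of Kl. How much of these counts came from choroid plexus was not tested. With the 8 weighted equally, Ttr minus their mean log2 CPM was 5.27, 4.13, 2.68 and 6.11 at 1% protein, against 3.15, 1.43, 1.87 and 1.64 at 20% protein, and the groups overlapped again.

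**Figure D4:**
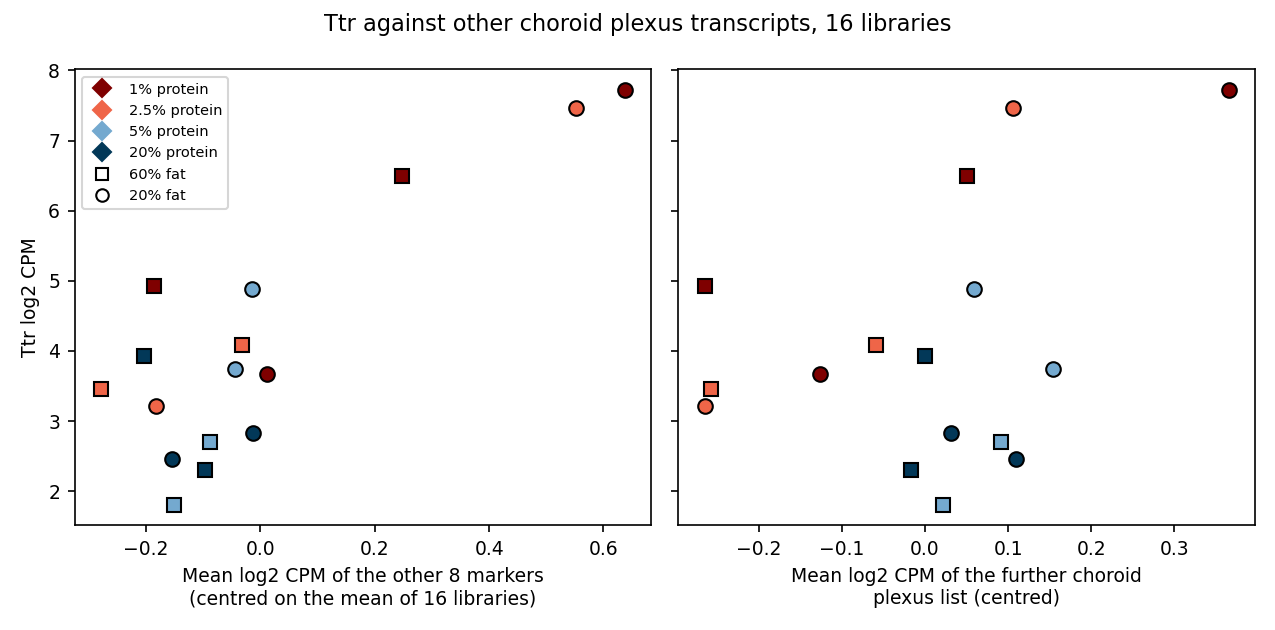
Ttr in log2 CPM against the mean log2 CPM, centred over 16 libraries, of the other 8 markers (left) and of 28 further choroid plexus genes (right), with colour for protein, squares for 60% fat and circles for 20% fat. The libraries 20% fat/1% protein replicate 2 and 20% fat/2.5% protein replicate 2 lie highest on both axes of the left panel, at 0.64 and 0.55 for the other 8; on the right the second of them lies at 0.11, among the other libraries.

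Pearson's r with Ttr over the 16 libraries, of log2 CPM and as a description only, was 0.74 for Aqp1 (Spearman's rho 0.67), 0.72 for Kcne2 (0.55), 0.69 for Folr1 (0.35) and 0.59 for Sostdc1 (0.44). It was 0.48 for Tmem72, 0.38 for Kl, 0.17 for Clic6 and -0.04 for Calml4. The libraries are of similar depth, 2 of them carry cortex markers, and all 16645 other genes had a median r of 0.0063 with 1% at or above 0.65. Without the 2 cortex-marker libraries r was 0.64 for Aqp1, 0.36 for Clic6, 0.35 for Kcne2, 0.31 for Folr1, 0.28 for Sostdc1, -0.08 for Tmem72, -0.22 for Kl and -0.35 for Calml4, so the order below Aqp1 changed. The 10 named genes most like Ttr in this measure were Rasgrp1, Thbs4, Nrn1, Fibcd1, Ksr1, Adcy1, Dagla, Faah, Camk1d and Sv2b (r 0.80 to 0.84, at 0.46 to 0.66 without the 2 libraries), among genes with a mean of at least 1 CPM. A predicted gene and a gene below that mean also ranked among them and were left out. None of these 10 is on the choroid plexus lists, and Nrn1 is among the 12 markers of cortical and hippocampal neurons. With each diet's mean taken off, r with Ttr was 0.86 for Kl, 0.83 for Kcne2, 0.81 for Aqp1, 0.77 for Folr1 and 0.64 for Sostdc1. It was 0.53 for Tmem72, 0.04 for Calml4 and 0.03 for Clic6. These within-diet values include the cortex-marker libraries and are a description only.

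With the mean of the other 8 markers as a covariate, the change of Ttr at 1% against 20% protein was 1.31 ± 0.59 on the log2 scale (edgeR, adjusted p = 0.128), and per log2 unit of the covariate Ttr differed by 4.95 ± 0.84 (adjusted p = 0.0132). Without the 2 cortex-marker libraries as well, the change of Ttr was 1.59 ± 0.61 (edgeR, adjusted p = 0.0618). The difference per log2 unit of the covariate was then 3.92 ± 1.56 and did not pass (edgeR, adjusted p = 0.998). With a further 28 choroid plexus genes as the covariate instead, the change of Ttr was 2.997 ± 0.67 (edgeR, adjusted p = 0.00716). Of these 28, Bmp6 and Igf2 are also on the list of meningeal markers. The list mixes genes with r to Ttr of either sign. Vat1l (mean 359 CPM) had -0.55, Slc12a2 (122 CPM) -0.46 and Enpp2 (248 CPM) -0.32, while Slc4a5 had 0.78 and Wfikkn2 0.60. These r values include differences between diets. With each diet's mean taken off, r was -0.82, 0.37, 0.88, 0.94 and 0.40 in the same order, with the cortex-marker libraries included. How well the mean of this list tracks choroid plexus tissue was not tested.

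**Figure D5:**
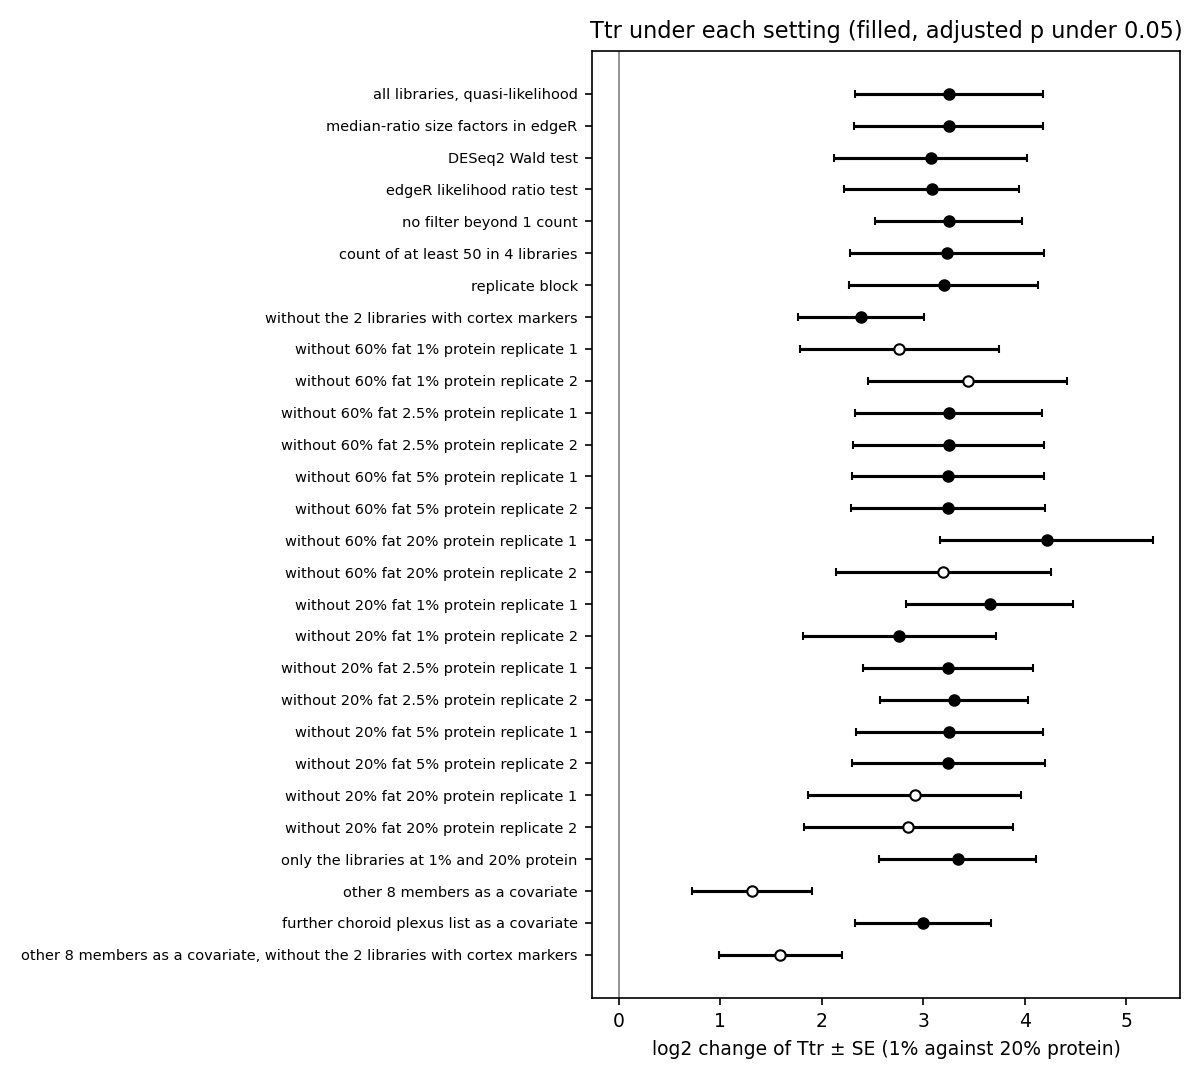
Log2 change of Ttr at 1% against 20% protein with its standard error under each alternative fit; filled points have an adjusted p under 0.05. The 7 open points are 5 fits without a single library and the 2 with the other 8 markers as a covariate, which give the lowest changes (1.31 and 1.59).

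Further choroid plexus genes did not follow a single direction. Of 28 tested, 1 rose at 1% against 20% protein, 4 fell (8.26% and 6.01% of all genes did) and 23 did not pass, with a median of -0.0039. Wfikkn2, a secreted protease inhibitor that binds growth factors of the TGF-beta family, rose by 1.71 ± 0.20 (3.27-fold, edgeR, adjusted p = 0.000115). It had 10.8, 5.46, 10.1 and 11.2 CPM at 1% against 2.90, 3.15, 1.95 and 3.41 CPM at 20% protein. Its groups did not overlap, as was so for 13.8% of all genes tested. Slc13a4, a sulfate transporter (-0.99), Bmp6, a growth factor (-0.55), Enpp2, the lysophospholipase autotaxin (-0.46), and Slc12a2, a sodium, potassium and chloride cotransporter of fluid secretion (-0.36), fell. Otx2, the homeobox factor of this epithelium, gave 0.43 ± 0.15 (adjusted p = 0.0629). With the cortex-marker libraries left out, 2 of the 28 rose and 10 fell, in a fit that called 34.8% of 16932 genes. Bmp6 and Igf2 stand on both the choroid plexus and the meningeal lists.

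Genes that handle thyroid hormone and retinol, the cargoes of transthyretin, also went both ways. Of 23 tested, 4 rose and 3 fell, where 8.26% and 6.01% of all genes did. The other 16 did not pass, and the median was -0.08. Hr, a corepressor induced by thyroid hormone, rose by 1.17 ± 0.14 (adjusted p = 0.000111). Slco1c1, a transporter of thyroid hormone, fell by 0.51 on the log2 scale. Rbp4, the retinol carrier of plasma, gave -0.04 (adjusted p = 0.898). Without the cortex-marker libraries 24 were tested, of which 4 rose and 4 fell, where 34.8% of all genes were called. In the fit over all 16 libraries, of 8 genes of the fibroblast growth factor receptor and klotho family, Fgfr2 fell (-0.37) and 7 did not pass. This is near the 14.3% of all genes called. Among those not passing was Klb, the co-receptor related to klotho (-0.20, edgeR, adjusted p = 0.604). Without the cortex-marker libraries 1 of the 8 rose and 1 fell, where 34.8% of all genes were called.

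Markers of several neighbouring cells were called as well, where 14.3% of 16646 genes tested were, 8.26% higher and 6.01% lower. Of 14 meningeal fibroblast markers 13 fell at 1% against 20% protein (median -0.84), for example Slc47a1 (-1.92) and Lum (-1.23), and of 11 endothelial markers 8 fell and 1 rose (median -0.43). Of 12 ependymal markers none passed, of 13 tanycyte markers 2 fell, and of 11 thalamic markers 4 rose. Of 12 hypothalamic markers 1 rose and 2 fell, and of 12 cortical and hippocampal markers none passed (median 0.19). The fit without the cortex-marker libraries called 34.8% of 16932 genes. In it 14 meningeal markers fell, 8 endothelial markers fell and 1 rose, and 1 ependymal and 4 tanycyte markers fell. Of the thalamic markers 6 rose and 1 fell, of the hypothalamic 4 rose and 1 fell, and of the cortical 2 rose and 3 fell. The part of these lists in the change of Ttr was not tested.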

How the data were processed

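RNA sequencing counts from the hypothalamus of C57BL/6N mice on 8 diets, 2 libraries each, were used as the authors deposited them: raw counts for 47069 genes with no normalisation. Per the submitters' processing notes, reads were handled on GRCm38 with HISAT2 2.1.0 and Subread 5.0 (featureCounts), beside SAMtools 1.2, FastQC and edgeR; per the labels' protocols, RNA was extracted with Trizol. Totals were 17731242 to 18511818 counts per library.

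Genes were kept with filterByExpr (minimum count 10), leaving 16646, and scaled by TMM factors. Quasi-likelihood F tests from edgeR 4.0.16 under R 4.3.3, adjusted over all genes by Benjamini-Hochberg at 0.05, were fitted on protein as 4 levels plus fat, on the 8 diets, and on linear protein and fat. SE is the log2 change over the root of F. CPM are TMM-scaled and their log2 has a prior count of 2. The code was tested on simulated data. Alternatives were other scaling, filters and tests (DESeq2 1.42.0), leaving out libraries, a replicate block and marker covariates; the permutation test, the covariate fit without the cortex-marker libraries and the list counts without them were added after seeing the data. The members, lists and rules for naming genes were chosen with earlier results of these data known. Named list genes were up to 4 per list past the threshold with the largest change, plus Otx2, Enpp2, Rbp4, Slco1c1 and Klb; some genes that the rule names are not reported here.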

Additional observations from a re-analysis of the deposited data

Results flagged for a closer look

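In 54 groups of 4 or 8 libraries, 6 held a library far from the others by Dixon's 95% criterion, which chance meets in about 1 of 20. Ttr stood apart at 2.5% protein in 20% fat/2.5% protein replicate 2 (176 CPM) and at 60% fat in 60% fat/1% protein replicate 1 (90.0 CPM). Kl stood apart at 20% fat in 20% fat/1% protein replicate 2 (13.5 CPM), and Aqp1 at 60% fat in 60% fat/1% protein replicate 1 (1.63 CPM). Sostdc1 stood apart at 5% protein in 20% fat/5% protein replicate 2 (3.48 CPM), and Calml4 at 20% protein in 60% fat/20% protein replicate 2 (1.30 CPM).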

How the results depend on the processing

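At 1% against 20% protein, Ttr kept its sign in all 26 alternatives planned and passed in 20, with log2 changes of 1.31 to 4.22 and adjusted p of 0.00537 to 0.128. It did not pass with the other 8 markers as a covariate (1.31), with that covariate and without the cortex-marker libraries (1.59) or in the exact permutation test (2.82). Leaving out single libraries gave 2.77 to 4.22 and 0 to 2 members called. The likelihood ratio test called 2 (Ttr and Aqp1), and a line in log2 protein called 1. The genes called in all ran from 806 with the 1% and 20% libraries alone to 5889 without the cortex-marker libraries, against 2376; along the slope log2 protein called 1311, DESeq2 93 and the likelihood ratio test 100, against 3. Signs turned for Clic6 (-0.00599 with a stricter filter, -0.0072 with the 1% and 20% libraries alone), Calml4 (-0.0766 without the cortex-marker libraries, -0.0057 with the 1% and 20% libraries alone), and, without the cortex-marker libraries, for Kl (-0.18) and Tmem72 (-0.23) and for fat in Ttr (0.19), Kl (0.10) and Folr1 (0.20). Over single removals the protein change ran from -0.15 to 0.21 for Calml4, -0.11 to 0.0723 for Clic6, -0.17 to 0.15 for Kl and -0.19 to 0.58 for Tmem72. The fat change ran from -0.14 to 0.0586 for Calml4, -0.0333 to 0.0828 for Clic6, -0.47 to 0.0171 for Folr1 and -0.11 to 0.0305 for Kl, and the difference between fat levels for Ttr from -2.58 to 1.56 (1.56 without the cortex-marker libraries). The cause of these turns was not tested. With the replicate number as a block Ttr gave 3.20 (edgeR, adjusted p = 0.0297) and no member's call changed. The block fit called 2786 genes, against 2376. Same-numbered libraries of 28 diet pairs deviated together with a median r of 0.02 (-0.17 to 0.339), 7 of them above 0.1. Whether same-numbered libraries share a batch was not tested. Kcne2, Tmem72, Aqp1 and Folr1 rest on few counts, which limits their precision.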

Other observations

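Of 1122 coding genes that lie wholly inside the span of another gene, 1077 (96%) were listed at 0 in all 16 libraries, against 2487 of 12547 (19.8%) that overlap none. The choroid plexus genes Kcnj13, a potassium channel, and Mfrp, a membrane frizzled-related protein, both lie inside another gene and were listed at 0 in all 16, so their counts do not bear on the amount of this epithelium.

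Over all 16 libraries Slc4a5, a bicarbonate cotransporter of choroid plexus epithelium, had the highest r with Ttr of the choroid plexus genes compared (0.78, chosen after its value was seen). Without the cortex-marker libraries its r was 0.53, below Aqp1 (0.64) and Wfikkn2 (0.61). Slc4a5 rests on few counts, 175 over all 16 libraries. It had 2.01 and 1.14 CPM in the cortex-marker libraries, 0.900 CPM in 60% fat/1% protein replicate 1 and 0.161 to 0.719 CPM elsewhere, and its change at 1% against 20% protein was 1.15 ± 0.52 (edgeR, adjusted p = 0.136).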
